A study of Mus musculus with 90 samples.

Results

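RAW 264.7 cells are a mouse macrophage line. Their transcripts were compared after 4 h with lipopolysaccharide (LPS) plus interferon gamma (IFG) and after 4 h without treatment. The condition was chosen by its label and holds 6 of the 90 arrays of the series, as 3 numbered sets of dye-swapped arrays: in each set treated RNA was in Cy5 on one array and in Cy3 on the other. LPS was given at 100 ng/ml and IFG at 5 nM. Further groups of 6 arrays each served to place the result: LPS 4 h (100 ng/ml, together with 100 pM of lipid binding protein, which the labels of the combination do not list), IFG 4 h (5 nM), and LPS+IFG at 1 h and 2 h (the same doses). The other conditions of the series were not compared here but entered the filter of probes and the spread used by the tests. They were LPS alone and IFG alone at 1 h and 2 h, and 2-methyl-thio-ATP with and without LPS at 1 h, 2 h and 4 h. Every array carried time-matched untreated RNA as its other sample. Nothing in the labels tells if the sets came from different cultures or if the untreated RNA was common to several treatments. The p-values therefore measure a spread between sets which may be technical. That spread was pooled over all 15 conditions of the series, so it is not the SD of the 3 sets printed beside a mean. Only ratios to untreated RNA were analysed here, so the identity of the cells could not be checked by the level of their markers.

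LPS, from the outer membrane of Gram-negative bacteria, is sensed by Toll-like receptor 4, which activates NF-kB and, by way of interferon beta, antiviral genes. IFG binds its own receptor, acts through palindromic sites in promoters and induces further factors such as IRF1. Together they are the classical stimulus for macrophages that kill microbes, make nitric oxide and stop dividing.

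Values are log2 ratios of treated over untreated RNA, so that 1 is a 2-fold difference, and each set is the mean of its 2 arrays. Which channel is on top of the deposited ratio is not in the labels. Cy5 over Cy3 was taken as likely, because genes known to rise with LPS and IFG are then higher, so the rise of such genes is in part assumed. With the direction turned, every sign given here would turn, including those of the counts, ranks and differences. A feature (a gene, or a probe without a gene name) was called where its p from limma, adjusted by the method of Benjamini and Hochberg, was below 0.05 and its mean lay at least 2-fold from no change. Of 11600 features, 531 were called higher in LPS+IFG 4 h cells (4.58%) and 247 lower (2.13%), while the median of all features was -0.01. By the adjusted p alone 14.9% were higher and 18.5% lower, and with the sign turned the called counts would be 247 higher and 531 lower. Called higher features had a median ratio of 1.62 and called lower ones of -1.25. Of the increases 184 were 4-fold or more and 25 were 16-fold or more, against 11 and 0 of the decreases. Of the called features, 520 higher and 241 lower ones had the same sign on all 6 arrays, which 27.9% of all features had.

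Promoters of 4 of the genes described below were chosen with their values known and are shown because each holds the letters of a motif of one or both signals, in a window of 250 bases before to 50 after the start of the gene (RefSeq, mouse build GRCm38.p6, plus strand in each case). Capitals mark the interferon gamma activated sequence (GAS, TTCNNNGAA, a site of the response to IFG), the interferon-stimulated response element (ISRE, GAAA, any 2 bases and GAAA again, bound by IRFs) or the kB site (GGG, any 2 bases and TTTCC, bound by NF-kB). Both strands were searched. The marked motifs do not overlap each other here. Irf1 has a further listed start whose window held none of these sites. The promoters shown are examples, and the shares over all genes are given below. Other strongly raised genes lacked these letters, as did Cxcl9, Tnf, Ifnb1 and Il1b, and Ifit2 held GAS without ISRE.
Irf1 (chr11:53769764-53770063, GAS): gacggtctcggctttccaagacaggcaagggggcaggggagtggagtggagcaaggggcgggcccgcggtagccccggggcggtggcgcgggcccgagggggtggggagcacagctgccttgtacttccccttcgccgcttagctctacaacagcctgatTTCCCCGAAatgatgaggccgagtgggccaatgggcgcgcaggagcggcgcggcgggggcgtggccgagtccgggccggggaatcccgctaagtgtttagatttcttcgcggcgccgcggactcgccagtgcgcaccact
Igtp (chr11:58199306-58199605, GAS then ISRE): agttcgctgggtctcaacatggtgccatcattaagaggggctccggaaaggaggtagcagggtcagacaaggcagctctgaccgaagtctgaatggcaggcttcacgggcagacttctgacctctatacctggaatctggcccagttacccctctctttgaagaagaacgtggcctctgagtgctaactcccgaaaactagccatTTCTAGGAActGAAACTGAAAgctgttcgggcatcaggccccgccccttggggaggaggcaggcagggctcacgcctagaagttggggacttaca
Ifit1 (chr19:34640639-34640938, ISRE at 2 places on the minus strand): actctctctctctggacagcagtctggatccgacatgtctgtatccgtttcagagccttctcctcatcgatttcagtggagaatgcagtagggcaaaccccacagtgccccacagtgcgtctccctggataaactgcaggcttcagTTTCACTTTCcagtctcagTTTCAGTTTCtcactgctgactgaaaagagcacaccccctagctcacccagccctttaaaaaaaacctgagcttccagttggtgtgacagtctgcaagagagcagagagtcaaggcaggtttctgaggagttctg
Il6 (chr5:30012864-30013163, kB): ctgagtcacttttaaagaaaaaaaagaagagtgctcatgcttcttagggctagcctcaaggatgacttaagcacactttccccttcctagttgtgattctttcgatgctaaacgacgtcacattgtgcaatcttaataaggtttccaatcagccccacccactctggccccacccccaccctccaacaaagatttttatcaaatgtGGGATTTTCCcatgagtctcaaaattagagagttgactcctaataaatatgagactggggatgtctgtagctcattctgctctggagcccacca

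For the same genes, the ratios with each single agent were set beside those of the combination. LPS and IFG were not tested against each other. Il6, the cytokine interleukin 6, stood at 5.18, 4.54 and 5.71 in the 3 sets of LPS+IFG 4 h, against 4.39, 4.58 and 4.54 with LPS and 0.10, 0.67 and 0.56 with IFG. Ifit1, an RNA-binding antiviral protein, averaged 3.76 ± 0.37 with LPS+IFG (SD, n = 3 here and below), 4.44 ± 0.07 with LPS and 1.00 ± 0.44 with IFG. In LPS+IFG cells both genes lay above every IFG set. Igtp, an immunity-related GTPase, averaged 4.04 ± 0.34 with LPS+IFG, 3.41 ± 0.23 with LPS and 4.13 ± 0.36 with IFG. Irf1 averaged 3.45 ± 0.28 with LPS+IFG, 2.71 ± 0.36 with LPS and 3.86 ± 0.13 with IFG. The sets of LPS+IFG and IFG overlapped for Igtp. For Irf1 every IFG set lay above those of LPS+IFG, but the difference of -0.42 ± 0.26 (SE) was not called (limma adjusted p = 0.422). The 3 treatments may share untreated RNA.

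Among the 348 called higher genes with a promoter in the reference, 14.1% held the GAS letters, against 8.60% of all 7744 tested genes with a promoter. The ISRE was in 10.9% of the called higher genes, against 3.95% of all, and the kB site in 3.74%, against 1.90%. For the AP-1 site (TGANTCA, also present in the Il6 window) the shares were 13.2% and 8.06%. Of the 169 called lower genes, 6.51% held GAS, 4.14% ISRE, 1.78% kB and 6.51% AP-1. The E2F site (TTTGGCGC) was in 0.575% of called higher, 1.18% of called lower and 0.878% of all genes. These shares are descriptions of letters in a window.

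The counts of list members below stand beside 4.58% of all features called higher and 2.13% called lower. The immunity GTPases, which attack the vacuoles of intracellular microbes, had the highest median of any list, at 4.91. Of their 7 measured members (of 13 listed) 7 were called higher. Iigp1 stood at 5.70, 5.45 and 5.88 in the 3 sets, a mean of 5.68 ± 0.22 or 51.2-fold (adjusted p = 2.54e-21). Tgtp1 averaged 5.62 ± 0.13, with 1 array value of one of its probes at the upper limit of the deposited scale (6.64). Gbp3 averaged 5.59 ± 0.24, Gbp8 4.91 ± 0.38, Irgm2 3.71 ± 0.50 (n = 2) and Gbp4 2.30 ± 0.55. The antiviral effectors, which bind or destroy viral RNA and proteins, were called higher in 19 of 20 measured cases (median 2.87). Ifit2 was the highest at 5.06, 4.97 and 4.97, followed by the nucleotide kinase Cmpk2 at 4.97 ± 0.43 and the nucleic acid sensor Zbp1 at 4.07 ± 0.51. The ubiquitin-like modifier Isg15 averaged 4.00 ± 0.31 and the GTPase Mx1 3.71 ± 0.25, although the 2 probes of Mx1 stood at 2.74 and 4.69. Isg20 at 0.15 was the member not called. The plot of the highest and lowest genes shows each set.

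**Figure D1:**
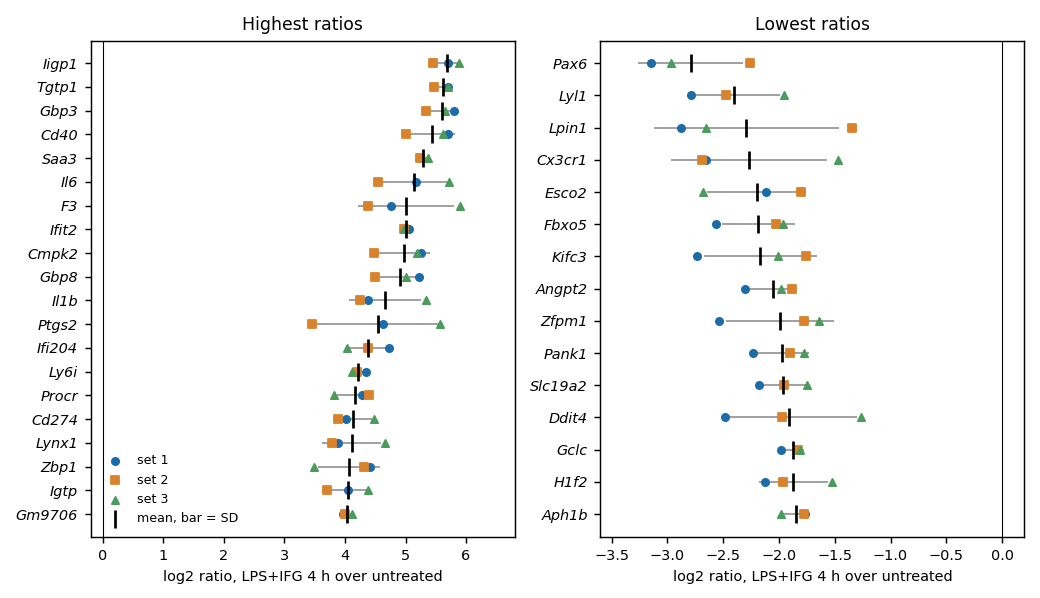
Log2 ratio of LPS+IFG 4 h over untreated RNA in each of the 3 sets (symbols) with the mean (tick) and SD (bar), for the 20 called genes of highest and the 15 of lowest mean among those with 1 sign on the 6 arrays. Iigp1 leads on the left at a mean of 5.68 and Pax6 on the right at -2.79, and the sets of Ptgs2 and Lpin1 lie far apart.

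Transcription factors of the interferon and Toll-like receptor pathways were called higher in 13 of 23 cases (median 1.35) and lower in none. Cebpd, which amplifies NF-kB output, averaged 3.58 ± 0.26, Irf8, a factor of macrophage identity, 3.26 ± 0.29, and Batf2 3.24 ± 0.44. Stat2 averaged 2.66 ± 0.20, Irf7 1.82 ± 0.25, and the NF-kB subunits Nfkb2, Relb and Rel 1.72 ± 0.45, 1.47 ± 0.21 and 1.31 ± 0.18. Rela, the main activating subunit, stood at 0.39 and was not called. Inhibitors and feedback regulators were called higher in 14 of 20 cases (median 1.11). They included the NF-kB partner Nfkbiz at 3.66 ± 0.35, the JAK inhibitor Socs1 at 3.55 ± 0.41, the mRNA decay factor Zfp36 at 3.27 ± 0.36, the MAPK phosphatase Dusp1 at 2.79 ± 0.51 and the ubiquitin editor Tnfaip3 at 2.37 ± 0.17. Socs3 stood at 0.13. With an equal spread on all arrays 9 of this list were called higher. Nfkbib, called at 1.02, rested on the arrays with treated RNA in Cy3, where it was 2.78, 2.35 and 3.12, while those with treated RNA in Cy5 read -0.43, -1.10 and -0.62.

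Inflammatory cytokines were called higher in 13 of 22 cases, with a median of 1.29, and lower in none. Interleukin 6 led at 5.14 ± 0.59 (35.4-fold, adjusted p = 2.23e-22), followed by Il1b at 4.66 ± 0.60, Ifnb1 (interferon beta) at 3.72 ± 1.12, Il15 at 3.69 ± 0.24, the anti-inflammatory Il10 at 3.58 ± 0.32 and Tnf at 3.04 ± 0.81. The subunits of interleukin 12 were near 0, with Il12b at 0.09 and Il12a at -0.12, and Il23a stood at 0.21. Chemokines were called higher in 6 of 14 cases (median 0.74). Cxcl9, which attracts activated T cells, read 5.57 and 5.96 in the 2 sets that had a value, the highest mean of any feature at 5.77. Ccl12 averaged 3.99 ± 0.19, Ccl4 3.01 ± 0.45 and Cxcl16 2.73 ± 0.29. Ccl7 averaged 3.50 ± 0.18, but its 3 probes ranged over 0.30 to 5.15, and those of Ccl22 (1.59 ± 0.73) over 0.03 to 2.66. Ccl5 was not called at 0.44, whereas a probe of it that was left out for missing values in other conditions averaged 3.77.

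Of the cytokine and chemokine receptors, 9 of 27 were called higher and 2 lower (median 0.22). The tumour necrosis factor receptor Tnfrsf1b averaged 2.88 ± 0.22, the leukotriene B4 receptor Ltb4r1 2.84 ± 0.66, and the subunits Il13ra1, Il15ra and Il4ra 2.61 ± 0.27, 2.32 ± 0.54 and 2.15 ± 0.85. The receptors called lower were Csf1r, the receptor for the macrophage growth factor, at -1.45, -1.42 and -1.0 (mean -1.29 ± 0.25), and the fractalkine receptor Cx3cr1 at -2.66, -2.69 and -1.47 (mean -2.27 ± 0.70). Ifngr1, which binds IFG, stood at -0.77, and Ifngr2 at -0.08. Of the Toll-like receptors and their adaptors, 8 of 19 were called higher and 1 lower (median 0.55). Tlr3, which senses double-stranded RNA, averaged 2.56 ± 0.40, the kinase Map3k8 2.42 ± 0.27 and the inflammatory caspases Casp1 and Casp4 2.14 ± 0.32 and 2.09 ± 0.28. Tlr4, the LPS receptor itself, was the member called lower, at -1.27, -1.19 and -1.32, though its 3 probes ranged over -1.55 to -0.59.

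Antigen processing and class I genes were called higher in 5 of 15 cases (median 0.82), led by the peptide transporters Tap1 at 2.73 ± 0.26 and Tap2 at 1.75 ± 0.50 and the immunoproteasome subunit Psmb10 at 1.59 ± 0.16. None of 7 class II presentation genes was called by limma (range -0.05 to 0.68, with 2 of them past the adjusted p alone). Their master regulator Ciita stood at 0.11. As 4.58% of all features were called higher, the lack of calls among 7 genes says little about this list. Co-stimulatory and checkpoint molecules were called higher in 6 of 13 cases and lower in 1 (median 0.84). Cd40, through which T cells activate macrophages, read 5.70, 5.01 and 5.62, and the checkpoint ligand Cd274 (PD-L1) 4.02, 3.88 and 4.48. The death receptor Fas averaged 3.96 ± 0.55, Cd83 3.80 ± 0.22, Cd80 1.83 ± 0.62 and Cd86 1.34 ± 0.65. Sirpa, which receives the signal that restrains phagocytosis, was called lower at -1.21 ± 0.21.

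For nitric oxide, arginine and oxidant production 6 of 18 genes were called higher and 1 lower (median 0.54). The members called higher were the synthase Nos2 at 3.47, 3.52 and 4.02, the arginine transporter Slc7a2 at 1.82 ± 0.53, Ass1, which rebuilds arginine from citrulline, at 2.30 ± 0.14, Gch1, of the synthesis of the synthase's cofactor, at 1.63 ± 0.16, the polyamine enzyme Odc1 and the superoxide dismutase Sod2 at 2.32 ± 0.07. The arginases Arg1 and Arg2 stood at 0.05 and 0.68. Gclc, the rate-limiting enzyme of glutathione synthesis, was called lower at -1.88 ± 0.10. Ptgs2, the inducible prostaglandin synthase, read 4.64, 3.45 and 5.57, and with the receptor Ptger4 made 2 of 11 genes of its list called higher (median 0.06). In the list of coagulation, complement and matrix remodelling, 6 of 21 were called higher (median 0.19). These were the acute-phase protein Saa3 at 5.28 ± 0.07, tissue factor (F3) at 5.01 ± 0.79, complement factor B (Cfb) at 3.89 ± 0.30, the urokinase receptor Plaur at 2.77 ± 0.51, F10 at 1.90 ± 0.38 and Timp1 at 1.49 ± 0.39.

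Fc, scavenger and lectin receptors were called higher in 6 of 23 cases (median 0.43), among them the integrin subunit Itgal at 2.47 ± 0.18, the fungal sensor Clec7a at 2.15 ± 0.38 and the antibody receptors Fcgr1 and Fcgr3 at 1.73 ± 0.06 and 1.45 ± 0.22. Nucleotide and purine signalling had 5 of 14 called higher (median 0.67), including the uridine and purine phosphorylases Upp1 at 3.47 ± 0.42 and Pnp at 2.76 ± 0.26. Cell death regulators had 6 of 21 called higher (median 0.41): the survival proteins Bcl2a1d (3.23 ± 0.22), Cflar (2.42 ± 0.11) and Birc3 (1.70 ± 0.47), and Daxx (3.01 ± 0.22), the necroptosis effector Mlkl (1.96 ± 0.19) and the killer Bcl2l11 (1.59 ± 0.07). The osteoclast-linked genes had 4 of 13 called higher (median 0.16), led by the fusion protein Ocstamp at 2.62 ± 0.16. Tryptophan, polyamine and itaconate enzymes had 2 of 6 (median 0.76), of which Odc1, counted also with the nitric oxide and arginine genes, was at 2.94 ± 0.20. Iron handling had 1 of 9 (median 0.31), the iron transporter Slc11a2 at 2.03 ± 0.23. As 4.58% of all features were called higher, 1 call says little about so short a list.

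The gene list with the most decreases was that of cell division. Of 30 measured G2/M and mitosis genes 12 were called lower and 0 higher, their median was -0.93 and 29 were lower where adjusted p alone was used, a rule that 18.5% of all features met. The cohesin acetyltransferase Esco2 read -2.11, -1.80 and -2.68, the kinesin Kif20a -1.73, -1.77 and -1.16, and cyclin A2 (Ccna2) -1.68, -1.71 and -0.96. In these sets every value lay below 0, with Esco2 lowest in set 3 and the other pair highest in set 3. Cdc20, Kif11 and Bub1b averaged -1.35 ± 0.50, -1.33 ± 0.30 and -1.26 ± 0.11. The 32 DNA replication and G1/S genes had a median of -0.66, and 25 of them were lower where adjusted p alone was used. The 4 called lower were thymidine kinase (Tk1, -1.53 ± 0.14), Gmnn (-1.50 ± 0.42), the ribonucleotide reductase subunit Rrm2 (-1.44 ± 0.14) and the licensing factor Cdc6 (-1.18 ± 0.54). Cyclin D2 (Ccnd2) was the member called higher, at 1.70 ± 0.57. With an equal spread on all arrays 7 of the G2/M and mitosis genes were called lower, and the lower DNA replication and G1/S genes numbered 7 without set 1 and 9 with the Cy5 orientation alone. Ratios of bulk RNA cannot tell fewer dividing cells from less of these transcripts in each cell.

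Growth arrest and p53 targets moved both ways, with 6 of 22 called higher and 3 lower (median -0.27). The members called higher include the growth factor-induced Myc (3.77 ± 0.43), its antagonist Mxd1 (3.15 ± 0.25), the pro-apoptotic Pmaip1 (2.59 ± 0.33) and Mdm2 (1.17 ± 0.55), the p53 inhibitor. Phlda3, the cyclin-dependent kinase inhibitor Cdkn2c and Ppm1d were called lower at -1.43 ± 0.17, -1.35 ± 0.20 and -1.09 ± 0.30, and Cdkn1a stood at 0.31. Of 15 lipid genes 3 were called lower (median -0.10): the sterol enzyme Sqle and the desaturase Scd1 at -1.29 ± 0.50 and -1.28 ± 0.36, and the fatty acid synthase Fasn at -1.01 ± 0.25. Unfolded protein and integrated stress genes had 1 of 20 higher, Ppp1r15a at 1.81 ± 0.29, and 3 lower (median -0.26), Ddit4 at -1.91 ± 0.61, Herpud1 at -1.35 ± 0.63 and Dnajb9 at -1.08 ± 0.39. Glycolysis and hypoxia genes had 1 of 13 higher, the phosphofructokinase Pfkp at 1.04 ± 0.14 (median 0.10). Mitochondrial genes had 1 of 19 lower, Idh1 at -1.21 ± 0.53 (median -0.11). As 4.58% of all features were called higher and 2.13% lower, a single call in 1 direction says little about lists of this size.

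The lowest feature was a probe without a gene name, at -3.38. Among named genes outside the lists above, the homeobox factor Pax6 read -3.15, -2.26 and -2.97 (mean -2.79 ± 0.47, adjusted p = 8.2e-14) and the blood cell factor Lyl1 -2.79, -2.47 and -1.96. The phosphatidate phosphatase Lpin1 averaged -2.29 ± 0.83, with set 2 at -1.35 and the others at -2.88 and -2.66. Fbxo5, an inhibitor of the anaphase-promoting complex, averaged -2.18 ± 0.33, the kinesin Kifc3 -2.17 ± 0.51, the GATA cofactor Zfpm1 -1.99 ± 0.48, the coenzyme A enzyme Pank1 -1.97 ± 0.24 and the thiamine transporter Slc19a2 -1.96 ± 0.22. Angpt2 averaged -2.06 ± 0.22 over probes at -3.19 and -0.92.

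Lists of lysosomal enzymes, reference genes and markers of other cell types had no calls. As 4.58% of all features were called higher and 2.13% lower, short lists can lack calls without differing from other features. None of 22 lysosomal enzymes was called by limma (median 0.01, 6 past the adjusted p alone), and none of 10 reference genes (median 0.15, 3 past the adjusted p alone), which ranged over -0.91 (Polr2a) to 0.92 (B2m). Markers of T and B lymphocytes (10 measured, -0.09 to 0.19), of neutrophils and mast cells (11, -0.16 to 0.85) and of fibroblasts, endothelium and epithelium (12, -0.06 to 0.98) had 0 calls, with 0, 1 and 1 members past the adjusted p alone. Among 11 macrophage markers 3 were called higher (Fcgr1, Msr1 and Fcgr3) and 1 lower (Csf1r), with a median of 0.36.

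**Figure D2:**
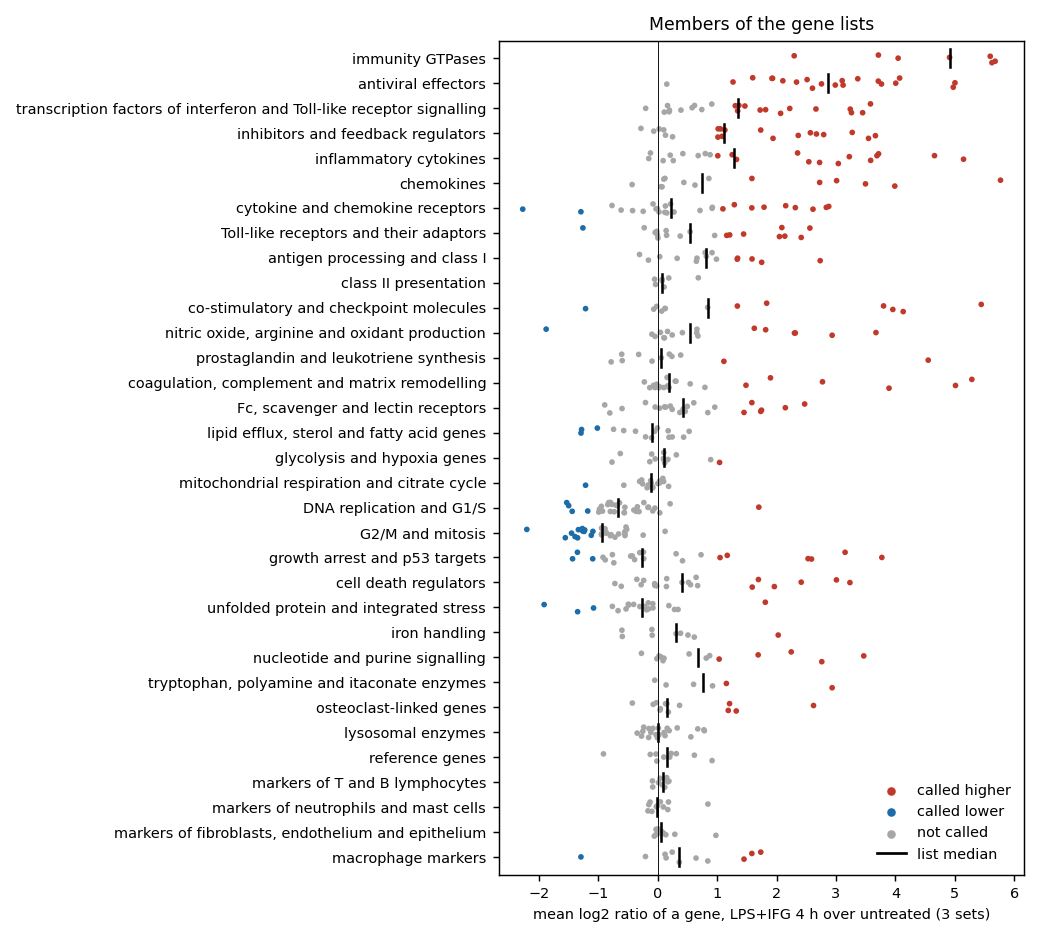
Mean log2 ratio of every measured member (point) of each gene list, LPS+IFG 4 h over untreated RNA, with called members coloured and the list median as a bar. The median of the immunity GTPases lies at 4.91 and that of the G2/M and mitosis genes at -0.93, while the lysosomal enzymes and the markers of other cell types lie around 0.

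The sets did not agree equally on every gene. Called features had a median SD over sets of 0.29 (higher) and 0.25 (lower), against 0.17 for all features. Set 3 lay more than 1 from the mean of the other sets for 44 called features, set 1 for 19 and set 2 for 18. The genes given next were singled out after their values were seen. Il1a read 1.92, 1.22 and 4.49 in sets 1 to 3, Csf3 2.66, 2.43 and 4.58, the vasoconstrictor Edn1 0.83, 0.49 and 2.66, and Ifnb1 3.67, 2.62 and 4.85. In these 4 genes set 3 was the highest. The heat shock genes Hspa1a and Hspa1b ran the other way, at 3.26, 3.06 and 0.62 and at 2.62, 1.78 and 0.38. Their calls therefore describe a mean with a wide spread, and what set 3 differed in was not tested. Calls near the 2-fold threshold turned on single sets: without set 3 Edn1 averaged 0.66, Pfkp 0.98, Cdc6 -0.87, Ppm1d -0.93, Dnajb9 -0.87 and Olfr933 -0.84, without set 1 Cd86 averaged 0.999, Mdm2 0.89, Fasn -0.88 and Ptger4 0.87, and without set 2 Idh1 averaged -0.94 and Slc1a4 -0.81. Nfkbib lost its call without set 1 (0.94) or set 3 (0.90).

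Dye orientations were close for most called features, with a median absolute difference of 0.24 and 19 features over 1 apart. Nfkbib was the called feature whose orientations had means of opposite sign. The next largest gaps among named genes, treated in Cy5 minus treated in Cy3, were 1.42 for Olfr933, 1.30 for Cd22, 1.18 for Trim34a, -1.18 for Slc1a4 and -1.13 for Ptger4.

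**Figure D3:**
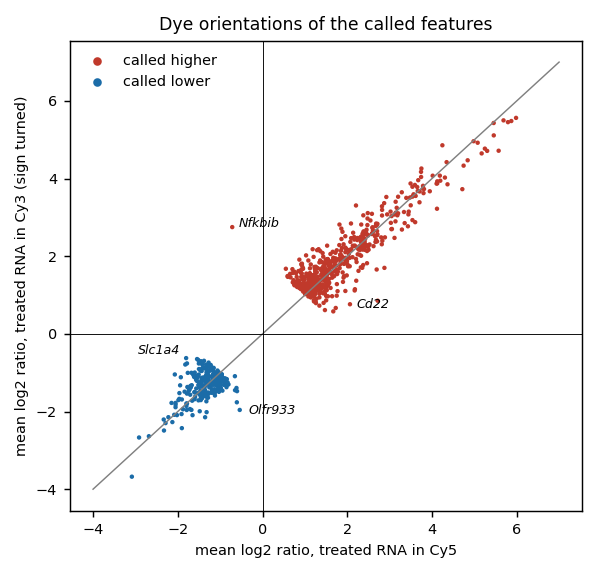
Each point is 1 of the 778 called features, with its mean log2 ratio over the arrays with treated RNA in Cy5 on the horizontal axis and in Cy3 (sign turned) on the vertical axis. Most points lie near the diagonal, 19 have orientations over 1 apart, and Nfkbib lies above 0 in one orientation and below 0 in the other.

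Filtering for values in every condition left out some genes that were measured in all 3 sets at 4 h. Of 454 such probes, 19 with a gene name had means of at least 2-fold and the same sign in every set. Gbp2b, a guanylate-binding protein, read 5.43, 4.85 and 5.49, the ISG15 protease Usp18 3.23, 2.75 and 2.73, and the RNA-editing enzyme Adar 2.35, 1.66 and 1.66. Ank averaged -1.51 ± 0.34 and Plxna2 -1.10 ± 0.26. These were not tested.

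The combination was next set against LPS alone at 4 h, which asks what IFG added. In LPS+IFG cells 94 features were higher than in LPS cells (0.81%) and 26 lower (0.224%). Cxcl9 averaged 5.77 in LPS+IFG cells, against 0.49 ± 0.18 in LPS cells, a difference of 5.28 ± 0.22 (SE, adjusted p = 2.08e-19). Ly6i, a surface protein of the Ly6 family, averaged 4.22 ± 0.11 and 0.17 ± 0.13, a difference of 4.06 ± 0.24. Irf8 averaged 3.26 ± 0.29 and 1.01 ± 0.20, Ltb4r1 2.84 ± 0.66 and -0.12 ± 0.27, and the ectonucleotidase Entpd1 1.69 ± 0.09 and -0.19 ± 0.02. Fcgr3 read 1.24, 1.69 and 1.43 in LPS+IFG cells, against -1.52, -1.07 and -1.03 in LPS cells. Of the immunity GTPases 4 of 7 were higher in LPS+IFG cells, and of the antiviral effectors 0 of 20. As 0.81% of all features were called higher, the 0 says little about the effectors. Medians of the GTPases and the effectors were 4.91 and 2.87 in LPS+IFG cells, against 3.52 and 2.94 in LPS cells.

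Other genes were lower with the combination than with LPS. Tlr2, a sensor of bacterial lipoproteins, read 0.31, -0.44 and 0.58 in LPS+IFG cells, against 2.02, 1.77 and 1.88 in LPS cells, a difference of -1.74 ± 0.22 (adjusted p = 4.78e-07). Rgs16, a regulator of G-protein signals, averaged 1.50 ± 0.43 and 2.98 ± 0.12, the decoy receptor Il13ra2 0.94 ± 0.22 and 2.37 ± 0.14, and the differentiation inhibitor Id3 -0.73 ± 0.27 and 0.89 ± 0.13. Tlr4 was lower in LPS+IFG cells by a difference of -1.02 ± 0.19, with LPS at -0.23 ± 0.32. Groups did not overlap for any of these genes, but genes of largest difference were named only where this held. The count of 26 was 46 without LPS set 3. It was 13 when the ratio to untreated RNA also needed one sign on all 6 LPS+IFG arrays. A gene near untreated with the combination, such as Tlr2, fails that rule whatever its difference from LPS. A combination without lipid binding protein was compared with LPS listed with it, so that its part in these differences cannot be told apart from that of IFG.

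Against IFG alone at 4 h, 246 features were higher in LPS+IFG cells (2.12%) and 56 lower (0.483%). Il6, Saa3 and Il1b were among those that differed most. Saa3 averaged 5.28 ± 0.07 with LPS+IFG and 0.60 ± 0.52 with IFG, and Il1b 4.66 ± 0.60 and 0.19 ± 0.04. Myc averaged 3.77 ± 0.43 and -0.26 ± 0.16, Csf3 3.22 ± 1.18 and 0.03 ± 0.14, and Marcks 3.21 ± 0.48 and 0.04 ± 0.12, though the probes of Marcks ranged over 0.76 to 5.00. Of the antiviral effectors 14 of 20 were higher than with IFG, while the immunity GTPases were higher in 1 of 7. Genes lower than with IFG included the sugar phosphate transporter Slc37a2 (-0.96 ± 0.39 and 1.36 ± 0.19), Tsc22d1 (-1.31 ± 0.16 and 0.79 ± 0.50), Klf2 (-1.69 ± 0.42 and -0.11 ± 0.22) and Csf1r (-1.29 ± 0.25 and -0.13 ± 0.07). The count of 56 was 34 without LPS+IFG set 1.

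Of the 531 features called higher, 252 differed from neither single agent by the call, and 35 were higher than both. Follistatin (Fst), which neutralises activins and was counted among the inflammatory cytokines, read 2.69, 2.73 and 2.76 with LPS+IFG, against a mean of 0.08 ± 0.06 with LPS (n = 2) and 0.23 ± 0.21 with IFG. Crabp2, a retinoic acid carrier, averaged 2.51 ± 0.61, against 0.11 ± 0.12 with LPS and 0.02 ± 0.08 with IFG. The LIM homeobox factor Lhx2 averaged 2.87 ± 0.47, against 0.73 ± 0.38 and 0.60 ± 0.03, and the protein C receptor Procr 4.17 ± 0.30, against 1.89 ± 0.69 and 1.05 ± 0.42. Upp1 averaged 3.47 ± 0.42, against 0.87 ± 0.15 and 1.58 ± 0.14, and Ass1 2.30 ± 0.14, against 1.24 ± 0.13 and 0.86 ± 0.30. Differences from the nearer single agent, each with its SE, were 2.50 ± 0.16 for Fst, 2.40 ± 0.34 for Crabp2, 2.27 ± 0.24 for Procr, 2.14 ± 0.18 for Lhx2 and 1.89 ± 0.16 for Upp1. Frmd4b was the feature lower than with both, at -1.67 ± 0.20, against -0.33 ± 0.04 with LPS and -0.59 ± 0.10 with IFG.

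**Figure D4:**
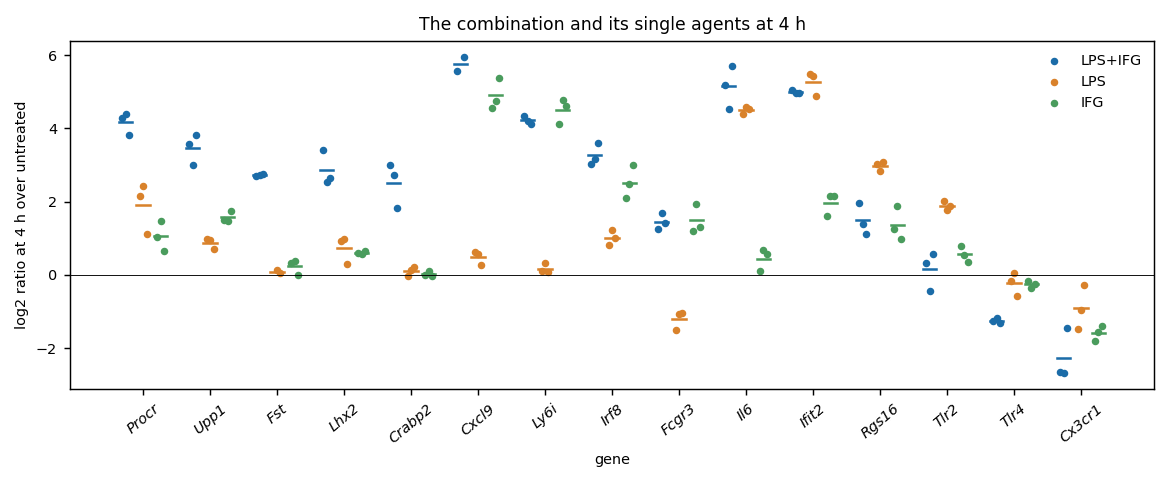
Log2 ratio over untreated RNA at 4 h in each set (points) and its mean (line) with LPS+IFG, LPS and IFG. Procr, Upp1, Fst, Lhx2 and Crabp2 lie above both single agents, Cxcl9 and Ly6i follow IFG, Il6 and Ifit2 follow LPS, and Tlr2 is raised by LPS but not by the combination.

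Across the 1 h, 2 h and 4 h of LPS+IFG, more features were called at each later time: 196 (1.69%), 348 (3%) and 531 higher, and 18 (0.155%), 86 (0.741%) and 247 lower. Of those higher at 1 h 78.1% were also higher at 4 h, but these were only 28.8% of the 4 h calls. Of those higher at 2 h 84.2% were, which made 55.2% of the 4 h calls, and 238 (44.8%) were called at 4 h alone, of which 168 were also called higher in the difference of 4 h and 1 h. Of the 247 decreases, 185 (74.9%) were called at 4 h alone, and 100 of these were also called lower in that difference. Genes high at every time included Cxcl9 (5.17 ± 0.57, 5.58 ± 0.33 and 5.77 ± 0.28, the last with n = 2), Irf1 (3.87 ± 0.62, 3.81 ± 0.21 and 3.45 ± 0.28) and Tnf (3.39 ± 0.84, 3.66 ± 0.68 and 3.04 ± 0.81).

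Compared directly, 360 features were higher at 4 h than at 1 h (3.1%) and 193 lower (1.66%), and 113 were higher at 4 h than at 2 h (0.974%) and 46 lower (0.397%). Il6 averaged 0.33 ± 0.27 at 1 h, 3.03 ± 0.85 at 2 h and 5.14 ± 0.59 at 4 h. Saa3 averaged 1.24 ± 0.29, 3.19 ± 1.24 and 5.28 ± 0.07 at these times, Procr 0.09 ± 0.07, 1.76 ± 0.67 and 4.17 ± 0.30, and Nos2 0.29 ± 0.15, 2.28 ± 0.46 and 3.67 ± 0.31. Lhx2, at 0.15 ± 0.08, 0.25 ± 0.39 and 2.87 ± 0.47, was among those called at 4 h alone. Of the antiviral effectors 10 of 20 were called higher at 1 h, 18 at 2 h and 19 at 4 h, with medians of 1.02, 2.12 and 2.87. Of the immunity GTPases 6 of 7 were called at 1 h, with medians of 3.10, 4.12 and 4.91.

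Other genes were lower at 4 h than at 1 h. The immediate early factor Egr2 averaged 4.79 ± 0.99 at 1 h, 2.14 ± 0.55 at 2 h and 0.91 ± 0.73 at 4 h, where it was not called. Btg2, which restrains proliferation, averaged 4.22 ± 0.46, 1.18 ± 0.63 and 0.42 ± 0.14, Arc 3.44 ± 0.13, 1.21 ± 0.39 and 0.87 ± 0.31, and the ligand Tnfsf9 1.89 ± 0.36, 1.04 ± 0.05 and -0.02 ± 0.22. Phlda1 was lower at 4 h (2.04 ± 0.97) than at 1 h (4.67 ± 0.31) but was still called. The mitotic list had 0 members called lower at 1 h, 2 at 2 h and 12 at 4 h, with medians of -0.03, -0.47 and -0.93. As 0.155% of all features were called lower at 1 h, the 0 at that time says little. Esco2 averaged 0.01 ± 0.28, -1.30 ± 0.29 and -2.20 ± 0.44. The count of 46 lower than at 2 h was 21 without LPS+IFG 4 h set 1 and 76 without its set 3.

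**Figure D5:**
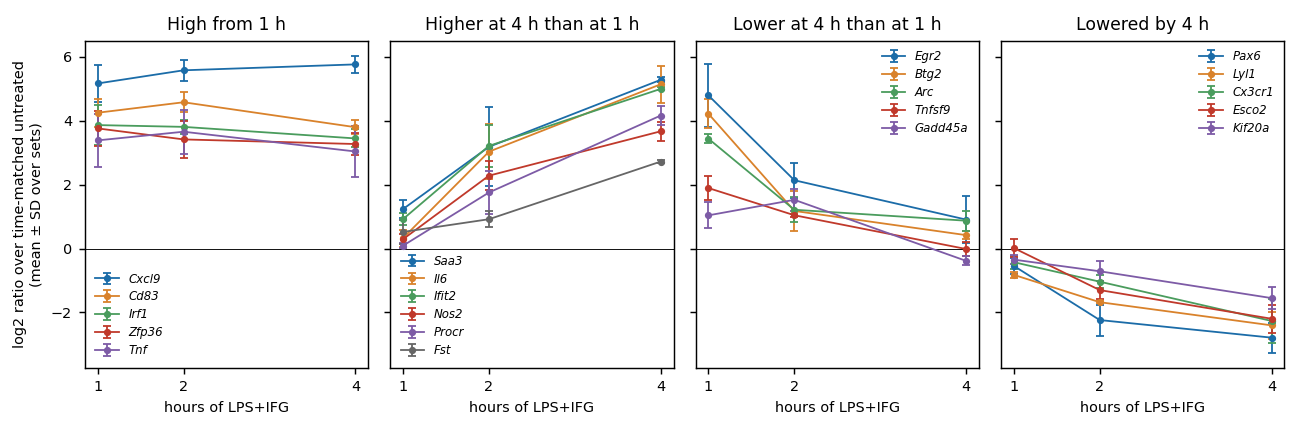
Mean log2 ratio (points, with SD bars) over time-matched untreated RNA after 1, 2 and 4 h of LPS+IFG, for 4 groups of genes by their course. Il6 and Saa3 lie above 5 at 4 h, Egr2 and Btg2 lie above 4 at 1 h and under 1 at 4 h, and Pax6, Lyl1, Cx3cr1 and Esco2 lie below -2 at 4 h.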

How the data were processed

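Per the labels, RNA of treated and time-matched untreated cells was hybridised to custom Agilent two-colour arrays. The deposited table holds log2 ratios of 16281 probes on 90 arrays. This unit follows from the limit of the values at 6.64, which is a 100-fold ratio in log2. The median was 0 on every array with the exact zeros counted, which does not show how the measured values were centred. Image reading, background handling and normalization are not given in the sources used here. Exact zeros (7.93 to 11.5% of values on the 6 arrays) were taken as missing. The sign was turned on arrays with treated RNA in Cy3, and dye-swapped arrays of a set (correlated at -0.662, -0.424 and -0.785 across probes before turning) were averaged. Probes with values in at least 2 of 3 sets of all 15 conditions were kept (13711), and probes of a gene averaged (1920 genes), which gave 9760 genes and 1840 unnamed probes. limma 3.58.1 in R 4.3.3 fitted 45 set means with 15 condition means (median residual SD 0.199). Tests were two-sided and adjusted over all features. The arrays' number limits the precision. The limma step was tested on simulated set means with independent noise. Figures used Python 3.11.15 and matplotlib 3.10.9.

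The members and lists were chosen with earlier results of these data known. Genes named were the 20 highest and 15 lowest called ones with 1 sign on 6 arrays, called list members, the 8 highest and 8 lowest of each difference, genes called in opposite directions at different times, and those with the largest dye differences. For the differences, these were taken from called genes whose compared sets did not overlap. Same-numbered sets deviated together for LPS+IFG 4 h with LPS 4 h (correlations 0.464 to 0.647), IFG 4 h (0.258 to 0.63) and LPS+IFG 2 h (0.346 to 0.696), not with LPS+IFG 1 h, so a fit with the replicate block was an alternative. Others changed the zeros, dyes, spread, samples fitted, probes, filter, sign and threshold.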

Additional observations from a re-analysis of the deposited data

Results flagged for a closer look

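Otud1, a deubiquitinase gene, was called in opposite directions at different times of LPS+IFG. It averaged 1.17 ± 0.67 at 4 h and -1.03 ± 0.39 at 1 h (SD, n = 3 each), and the difference was 2.20 by limma (adjusted p = 1.43e-06). Its sets at 4 h read 1.27, 0.46 and 1.79. Without set 3 Otud1 averaged 0.86 at 4 h and was no longer called. The effect of the combination differed from that of LPS at 4 h for 120 features, from that of IFG at 4 h for 302, from its own at 1 h for 553 and from its own at 2 h for 159, each by a test of the difference itself.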

How the results depend on the processing

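The 2-fold threshold and the spread of the arrays mattered most to the counts. With adjusted p alone, LPS+IFG 4 h had 1724 features higher and 2146 lower than untreated, 285 and 163 than LPS, 666 and 566 than IFG, 1000 and 1087 than at 1 h, and 439 and 356 than at 2 h. With ratios of all arrays scaled to the same spread, 384 were higher and 124 lower than untreated. In that setting 46 were higher and 7 lower than LPS, 103 and 12 than IFG, 209 and 100 than at 1 h, and 35 and 15 than at 2 h. With treated RNA in Cy5 only, 518 were higher and 403 lower than untreated, and with treated RNA in Cy3 only, 627 and 266. Needing one sign of the ratio to untreated on all 6 LPS+IFG arrays left 13 lower than LPS. That rule is about the ratio to untreated and not about the difference. Leaving out 1 set at a time gave 490 to 566 higher and 236 to 290 lower than untreated, 81 to 116 and 21 to 46 than LPS, 216 to 273 and 34 to 74 than IFG, 338 to 404 and 190 to 224 than at 1 h, and 82 to 162 and 21 to 76 than at 2 h. The cause was not tested. With the replicate block within a time, 531 were higher and 248 lower than untreated, 96 and 30 than LPS, 252 and 56 than IFG, 362 and 194 than at 1 h, and 116 and 51 than at 2 h. A block across 2 h and 4 h, chosen after seeing the data, gave 115 and 47. Neither moved a count by over 1.5 times, and the first kept the calls of all 210 named genes called in LPS+IFG 4 h. Of those 210, 35 lost the call with equal spread, 10 with Cy5 only, 8 with Cy3 only, and 7, 3 and 15 without sets 1, 2 and 3. Nfkbib was -0.72 with Cy5 only.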
